A study of Mus musculus with 13 samples.

Results

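The genes described here encode 9 MAP kinase kinase kinases (MAP3Ks) upstream of JNK, the c-Jun N-terminal kinase. They are Map3k1, Map3k4, Map3k5, Map3k7, Map3k9, Map3k10, Map3k11, Map3k12 and Map3k13, taken by symbol from 23845 genes in an RNA-seq series of mouse mammary tumour cell lines. The series compared 7 lines labelled JNK knockout with 6 lines labelled wild type (WT), all of strain FVBN/J and all untreated beyond their culture medium. Per the labels, cells from tumours were first grown on collagen I in 2% serum, then on standard dishes in 10% serum with 20 ng/ml EGF and 10 μg/ml insulin. Each sample is 1 line. Not named in the labels are the JNK genes removed, the promoter of any transgene or recombinase, and the animal behind each line. WT replicates 4 and 5 have titles that share a number. No label says that the lines come from separate animals, so the tests speak of line-to-line spread, some of which may be technical.

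MAP3Ks stand at the top of the stress kinase cascade. They phosphorylate MAP2Ks, chiefly MKK4 (Map2k4) and MKK7 (Map2k7) on the way to JNK, and these phosphorylate JNK. Different MAP3Ks connect different inputs to the same cascade, such as cytokine receptors, oxidants, DNA damage or small GTPases. In human breast cancer MAP3K1 is a recurrent site of inactivating mutation, which is one reason for interest in this layer in mammary tumours.

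Library totals ranged from 38298602 to 46689809 expected counts. Mapk8 (JNK1) was 5.76 ± 1.32 CPM (counts scaled to library size) in knockout lines and 29.8 ± 5.38 CPM in WT lines (mean ± SD, n = 7 and 6, as throughout), with every knockout line below every WT line. Mapk9 (JNK2) fell as well in the knockout lines (log2 fold change -1.63, SE 0.19, edgeR adjusted p = 0.000905). The epithelial markers Epcam, Cdh1, Krt8 and Krt18 were detected in all lines, summing to between 1050 and 3650 CPM in knockout lines and between 5260 and 6180 CPM in WT lines. The basal markers Krt5, Krt14, Krt17 and Trp63 summed to between 550 and 23900 CPM in knockout lines and between 53.8 and 248 CPM in WT lines, and the part of these marker differences in the MAP3K levels was not tested. Of leukocyte markers, Cd68 made up nearly all of a sum of 2.46 to 12.2 CPM in knockout lines and 2.16 to 18.8 CPM in WT lines. Endothelial markers summed to at most 0.755 CPM in knockout lines and 0.264 CPM in WT lines. Ptprc had 19 reads over all 13 lines and Cdh5 had 34. Knockout replicate 2 stood apart, with the highest basal sum (23900 CPM) and the lowest epithelial sum (1050 CPM) of all lines. Its mesenchymal markers (Vim, Zeb1, Col1a1, Col1a2, Pdgfrb and Acta2) summed to 6710 CPM, against at most 919 CPM in the other knockout lines and at most 1110 CPM in WT lines. That sum was mostly Vim (4040 CPM) and Acta2 (2580 CPM). Its Col1a1 was 3.41 CPM and its Col1a2 0.498 CPM, against 184 and 160 CPM in WT replicate 3, the WT line with the highest sum. In WT replicate 3 too Vim was the largest part of the sum, at 654 CPM. Values are from bulk RNA, in which fewer cells of a type and less RNA per cell cannot be told apart.

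The 9 genes lie on 9 different chromosomes. The 250 bases before the transcript start that RefSeq (GRCm38.p6) gives for 3 of them are printed 5′ to 3′ on the gene's own strand. In all 3 that start lies inside the annotated gene, downstream of its outer end. These 3 are shown because Map3k11 and Map3k5 had the lowest p-values of the 9 between the groups and Map3k10 was the member whose level followed that of Map3k11 most closely. Capitals mark letters that match TGANTCA, the AP-1 element bound by JUN and FOS proteins, which reads the same on both strands.
Map3k11, chr19:5688881-5689130, plus strand: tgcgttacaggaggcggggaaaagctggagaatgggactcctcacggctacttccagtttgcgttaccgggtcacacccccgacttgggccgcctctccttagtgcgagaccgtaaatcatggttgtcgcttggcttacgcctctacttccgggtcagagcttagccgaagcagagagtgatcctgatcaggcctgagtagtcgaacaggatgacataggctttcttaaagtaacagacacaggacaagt
Map3k5, chr10:19934276-19934525, plus strand: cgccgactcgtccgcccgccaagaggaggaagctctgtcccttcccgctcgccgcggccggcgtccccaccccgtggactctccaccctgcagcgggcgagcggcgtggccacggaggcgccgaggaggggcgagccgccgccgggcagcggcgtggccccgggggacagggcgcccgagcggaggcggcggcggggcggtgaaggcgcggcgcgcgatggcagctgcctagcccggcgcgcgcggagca
Map3k10, chr7:27674582-27674831, minus strand: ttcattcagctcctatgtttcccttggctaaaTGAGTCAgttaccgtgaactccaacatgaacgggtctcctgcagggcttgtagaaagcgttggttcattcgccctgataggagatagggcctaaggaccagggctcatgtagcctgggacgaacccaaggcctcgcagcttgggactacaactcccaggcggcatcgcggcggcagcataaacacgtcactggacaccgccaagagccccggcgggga
The AP-1 letters occurred in 1 of 10 windows for the 9 genes, the one of Map3k10, where they begin at position -218 from the transcript start. They occurred in 6.75% of 32851 RefSeq windows of the same length. The full cyclic AMP response element TGACGTCA, bound by ATF and CREB proteins, occurred in 0 of the 10 windows and in 1.55% of all windows. These are letter matches only. The windows of Map3k5 and Map3k11 also differed in composition, with 80.8% and 54% G or C against a median of 52.4% over all windows.

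All 9 genes were detected and passed the filter on low counts. On TPM, which scales reads to both gene length and library, Map3k7, which encodes TAK1, was the most abundant, with a mean of 44.6 TPM over the 13 lines, ahead of Map3k11 at 28 TPM. Map3k5 (14.6 TPM), Map3k10 (13.6 TPM), Map3k4 (11.1 TPM), Map3k1 (9.65 TPM), Map3k9 (7.24 TPM) and Map3k12 (4.05 TPM) followed, and Map3k13, which encodes LZK, was last at 0.804 TPM. Map3k7 was the highest of the 9 in 6 of 7 knockout lines and 4 of 6 WT lines. In the other lines, knockout replicate 6 and WT replicates 3 and 5, Map3k11 was the highest. Map3k13 was the lowest of the 9 in all 7 knockout and all 6 WT lines.

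The middle of this order was not firm. Map3k5 exceeded Map3k10 in 2 of 7 knockout lines and 3 of 6 WT lines, so most lines did not follow the order of the means. The difference between these neighbours was not tested. Map3k1 exceeded Map3k9 in 5 of 7 knockout lines and 3 of 6 WT lines. Map3k11 exceeded Map3k5 in 7 of 7 knockout lines and 5 of 6 WT lines, and Map3k12 exceeded Map3k13 in every line. The sum over the 9 genes was between 76.6 and 135 TPM in knockout lines and between 124 and 170 TPM in WT lines, ranges that overlap. The TPM scale as a whole was shifted between the groups, with a median difference of -0.19 in log2(TPM + 1) over all genes tested. On CPM the sums were between 356 and 458 in knockout lines and between 385 and 497 in WT lines. Knockout replicate 5 gave the lowest sum on both scales, at 356 CPM and 76.6 TPM. The gap was wider on TPM, as the next lowest sums were 383 CPM (knockout replicate 6) and 116 TPM (knockout replicate 2). Map3k11 in knockout replicate 5 was 53.4 CPM, below only replicate 6 in its group, while its 16.2 TPM was the lowest of all lines.

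**Figure D1:**
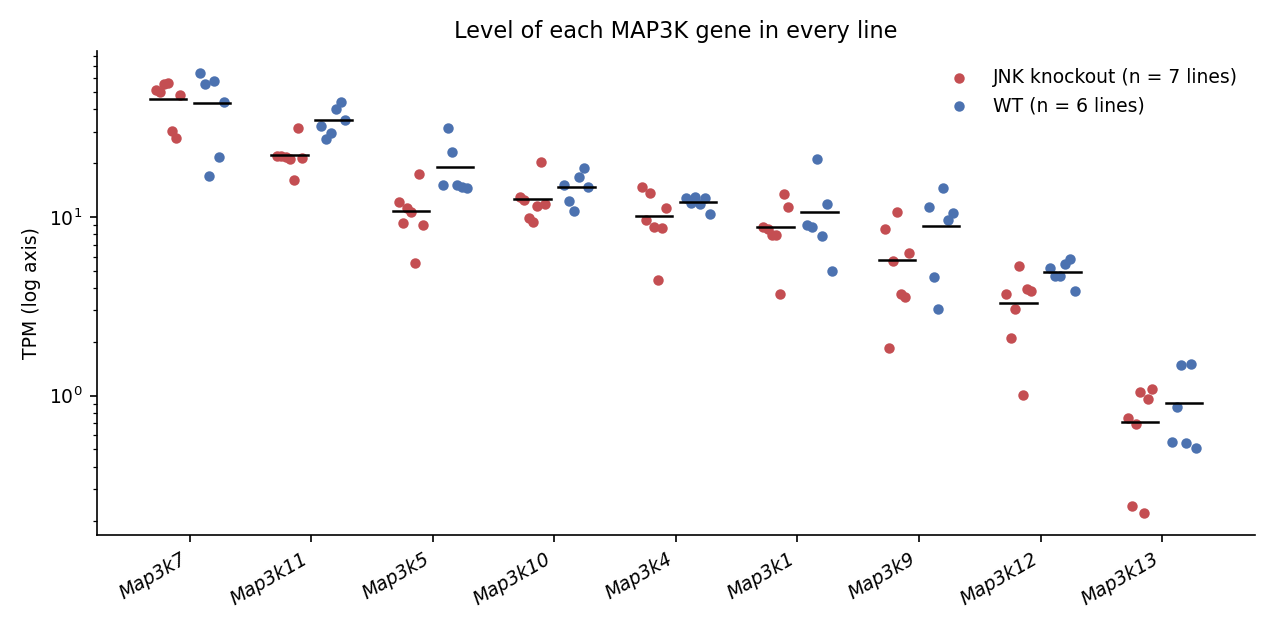
TPM (log axis) of the 9 MAP3K genes in each of 7 JNK knockout lines (left of each pair) and 6 WT lines (right), with black bars at the group means. Map3k7 and Map3k11 lie at the top and Map3k13 at the bottom in both groups, and the groups overlap for every gene.

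Between the groups, 0 of the 9 genes passed edgeR's quasi-likelihood test at an adjusted p under 0.05, where 8.51% of 13058 genes did (4.33% were higher in knockout lines, and 4.17% were lower). Before adjustment, at p under 0.05 there were 2 of the 9, Map3k11 and Map3k5, against 26.3% of all genes tested. Log2 fold changes (knockout minus WT) were negative for 7 of the 9, with a median of -0.18, against a median of 0.01 over all genes tested, of which 49.4% were negative. In no gene did the 7 knockout lines all lie below the 6 WT lines, as they did for 1.97% of genes, or all above them, as for 2.08%. Intervals below are approximate 95% intervals of the log2 fold change.

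Map3k11 encodes MLK3, a mixed-lineage kinase activated by the GTPases RAC and CDC42 that can phosphorylate MKK4 and MKK7 (chromosome 19, 5688411 to 5702865). Its level was 51.2, 52.1, 48.4, 46.1, 53.4, 69.2 and 51.2 CPM in knockout replicates 1 to 7, against 63.1, 55.2, 65.8, 80.3, 87.7 and 74.9 CPM in WT replicates 1 to 6. Knockout replicate 6 lay inside the WT range, and the other 6 knockout lines lay below every WT line. The log2 fold change was -0.42 (SE 0.13, interval -0.71 to -0.13, edgeR adjusted p = 0.0637), a 1.34-fold lower mean. Of 13 edgeR fits that each left out 1 line, Map3k11 passed in 2. These left out knockout replicate 6 (-0.49, adjusted p = 0.0272) or WT replicate 2 (-0.49, adjusted p = 0.0404). Each is the line of its group nearest to the other group, so leaving it out widens the difference. Without WT replicate 5 the log2 fold change was -0.36 (adjusted p = 0.127). With DESeq2 Map3k11 passed (adjusted p = 0.0223), and with limma-voom it did not (adjusted p = 0.0749). Map3k11 also varied little, with a biological coefficient of variation of 0.210, at percentile 6.49 of all genes tested.

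Map3k5 encodes ASK1, a kinase that thioredoxin holds inactive until oxidants release it (chromosome 10, 19934101 to 20142750). It measured 41.1, 31.8, 36.0, 33.8, 26.2, 55.7 and 31.2 CPM in knockout replicates 1 to 7, against 42.9, 92.7, 73.5, 43.7, 42.2 and 45.4 CPM in WT replicates 1 to 6. Here too the 6 knockout lines other than replicate 6 lay below every WT line. The WT mean was carried by replicates 2 and 3, while the other 4 WT lines were at 42.2 to 45.4 CPM. The log2 fold change was -0.63 (SE 0.23, interval -1.14 to -0.13, edgeR adjusted p = 0.0996), and leaving out knockout replicate 6 moved it to -0.76 (adjusted p = 0.0484). It was -0.44 without WT replicate 2 (adjusted p = 0.206) and -0.55 without WT replicate 3 (adjusted p = 0.177).

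On TPM Map3k11 averaged 22.3 ± 4.56 TPM in knockout lines and 34.8 ± 6.47 TPM in WT lines, a difference of -0.62 in mean log2(TPM + 1) (two-sided exact permutation p = 0.00233, and 0.0355 adjusted over all 13058 genes). Map3k5 averaged 10.8 ± 3.67 TPM and 19.1 ± 6.97 TPM in knockout and WT lines, a difference of -0.77 (exact permutation p = 0.00641, adjusted 0.0555). Map3k12 had the third lowest p of the 9 there (difference -0.54, exact permutation p = 0.0262, adjusted 0.116). By this test 9.7% of all genes had an adjusted p under 0.05. The TPM scale itself was shifted between the groups, with a median difference of -0.19 over all genes tested and 68.7% of genes lower in knockout lines, and the TPM differences and p-values of the 9 genes are given on that shifted scale.

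**Figure D2:**
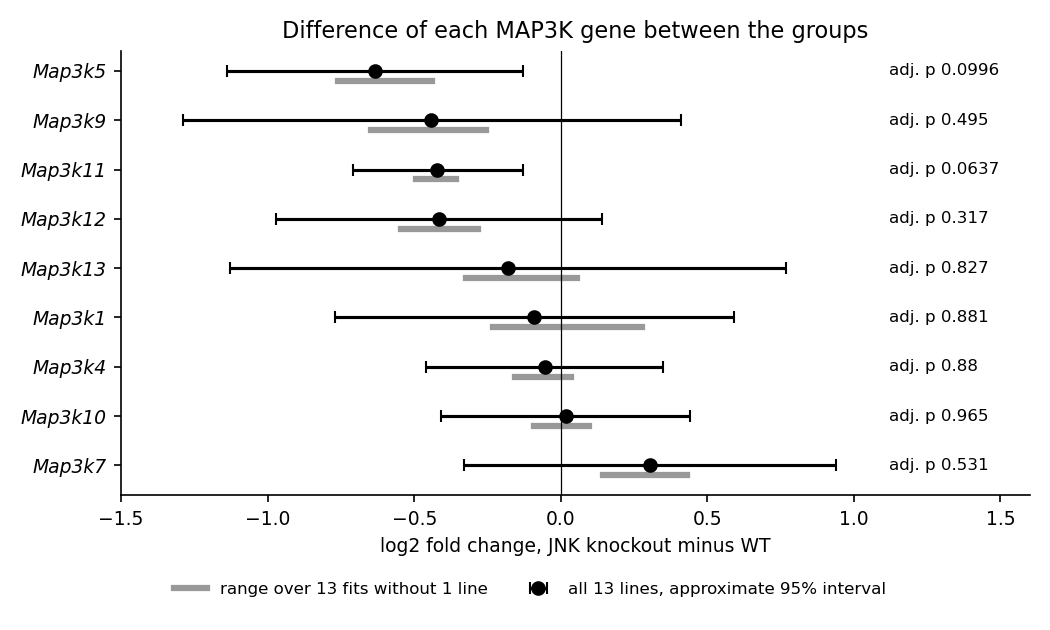
Log2 fold change (JNK knockout minus WT, edgeR on counts) of each MAP3K gene with its approximate 95% interval, and in grey the range over 13 fits that each left out 1 line. Map3k5 and Map3k11 have intervals below 0, at adjusted p of 0.0996 and 0.0637, and the intervals of the other 7 genes include 0.

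Map3k10 and Map3k9 encode MLK2 and MLK1, the relatives of MLK3. Map3k10 (chromosome 7, 27656375 to 27674630) was 29.3 ± 8.17 CPM in knockout lines and 29.0 ± 4.93 CPM in WT lines. The interval of its log2 fold change ran from -0.41 to 0.44 (adjusted p = 0.965), and its sign turned with 10 of 25 other settings, scaling by library size among them. Map3k9 (chromosome 12, 81714950 to 81781170) was 49.1, 12.1, 32.4, 67.6, 35.8, 22.7 and 43.6 CPM in knockout replicates 1 to 7, against 64.5, 27.2, 19.7, 82.7, 51.2 and 61.3 CPM in WT replicates 1 to 6. The groups overlapped over most of their range, and the log2 fold change was -0.44 (SE 0.39, interval -1.29 to 0.41, adjusted p = 0.495). Over fits that each left out 1 line it ran from -0.65 to -0.25, with -0.29 without knockout replicate 2 and -0.25 without WT replicate 4. The lowest Map3k9 level of each group was in the line with the highest mesenchymal sum, knockout replicate 2 (6710 CPM) and WT replicate 3 (1110 CPM). Vim was the largest part of both sums (4040 and 654 CPM). Acta2 was 2580 and 39.7 CPM in these lines, and Col1a1 was 3.41 and 184 CPM. Knockout replicate 2 is also the extreme line for the basal and epithelial sums. Not every line followed this. WT replicate 6 had a mesenchymal sum of 571 CPM, below only WT replicate 3 in its group, with Map3k9 at 61.3 CPM. Knockout replicate 6 had a sum of 70.7 CPM, with Map3k9 at 22.7 CPM. After group means were removed, Map3k9 correlated with the mesenchymal sum at r = -0.70, with the basal sum at -0.38 and with the epithelial sum at 0.46 over the 13 lines, a description of lines that share a library protocol and culture medium. The value of -0.70 was the largest in size between any of the 9 genes and any of these sums, was picked as such, and carries no test. With the mesenchymal sum the other genes of the 9 lay between r = -0.32 (Map3k12) and 0.35 (Map3k4). The part of these markers in the Map3k9 level was not tested.

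Map3k12 and Map3k13 encode DLK and LZK, kinases with leucine zippers best known from injured neurons. Map3k12 (chromosome 15, 102497647 to 102517004) was 12.9, 7.39, 10.1, 17.0, 4.84, 12.9 and 13.3 CPM in knockout replicates 1 to 7, against 14.9, 14.1, 15.4, 16, 17 and 12.2 CPM in WT replicates 1 to 6. Knockout replicates 2, 3 and 5 lay below every WT line, and knockout replicate 4 was level with the highest of them, with a log2 fold change of -0.41 (SE 0.25, interval -0.97 to 0.14, adjusted p = 0.317). Its expected counts were not whole numbers in any of the 13 lines, while those of the other 8 genes were whole in all 13 (within 1e-06), which RSEM gives where it divides reads between genes, so the level of Map3k12 is less certain. Map3k13 (chromosome 16, 21824056 to 21933439) was 3 ± 1.40 CPM in knockout lines and 3.40 ± 1.83 CPM in WT lines, with a wide interval of -1.13 to 0.77 (adjusted p = 0.827). It was lowest in knockout replicates 2 and 5, at 1.02 and 1.33 CPM, and highest in WT replicates 3 and 5, at 5.95 and 5.40 CPM.

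Map3k1 and Map3k4 encode MEKK1 and MEKK4. MEKK1 combines a kinase domain with ubiquitin ligase activity, and MEKK4 is opened by the stress-induced GADD45 proteins. Map3k1 (chromosome 13, 111746428 to 111818269) was 38.7, 38.5, 33.0, 32.5, 23.1, 55.6 and 51.4 CPM in knockout replicates 1 to 7, against 33.1, 33.6, 88.3, 29.4, 44.3 and 20.3 CPM in WT replicates 1 to 6. The WT lines held both the highest and the lowest level, and the log2 fold change was -0.09 (SE 0.31, interval -0.77 to 0.59, adjusted p = 0.881). Without WT replicate 3, the highest line, it was 0.28 (adjusted p = 0.499). Map3k4 (chromosome 17, 12227621 to 12318796) was even among WT lines and less so among knockout lines, with 20.9 to 48.8 CPM in knockout lines and 31.9 to 40.9 CPM in WT lines. Its log2 fold change was -0.05 (SE 0.18, interval -0.46 to 0.35, adjusted p = 0.88), and 0.04 without knockout replicate 5. Whether the groups differ in the spread of Map3k4 was not tested.

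Map3k7 encodes TAK1, which acts with TAB adaptor proteins below interleukin-1, TNF and TGF-beta receptors and signals to both NF-κB and JNK (chromosome 4, 31963492 to 32023470). It measured 184, 184, 190, 189, 154, 93.5 and 178 CPM in knockout replicates 1 to 7, against 193, 174, 57.9, 177, 65.7 and 145 CPM in WT replicates 1 to 6. Most lines of both groups lay close together, and knockout replicate 6 and WT replicates 3 and 5 lay far below them. The groups overlapped, with a log2 fold change of 0.30 (SE 0.29, interval -0.33 to 0.94, adjusted p = 0.531). It was 0.14 without WT replicate 3 (adjusted p = 0.764) and 0.16 without WT replicate 5 (adjusted p = 0.754). On TPM the difference in mean log2(TPM + 1) was 0.18 (exact permutation p = 0.592), and -0.05 without WT replicate 3.

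The genes around Map3k7 on chromosome 4 were low in the same lines. Of the 20 tested genes nearest to it, 10 on each side over 11.3 Mb, 18 were below their 13-line median in knockout replicate 6, 13 in WT replicate 3 and 15 in WT replicate 5. The count was 14 in knockout replicate 5, where Map3k7 was nearer the other lines (154 CPM), and at most 10 in the remaining 9 lines. The median of their deviations was -0.80, -0.73 and -0.67 (log2 CPM minus the 13-line median) in those 3 lines, and it was between -0.21 and 0.28 in the other 10. Over all 817 tested genes of chromosome 4 the medians of the 3 lines were -0.26, -0.29 and -0.26, and WT replicate 2, whose Map3k7 level was not low, had -0.25. After removal of group means, 11 of the 20 neighbours correlated with Map3k7 above r = 0.5 over the 13 lines, among them Casp8ap2 (r = 0.91) and Ube2j1 (r = 0.90), while Bach2 (r = -0.11) and Fut9 (r = -0.08) did not. Of all genes 10.7% correlated with Map3k7 above 0.5. The 100 genes most correlated with Map3k7 included 48 on chromosome 4, which holds 6.27% of the genes placed. The 3 most alike were Otud6b, Rngtt and Topors, each at r = 0.96 and each on chromosome 4. Map3k7 and its neighbours were singled out after their values were seen.

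**Figure D3:**
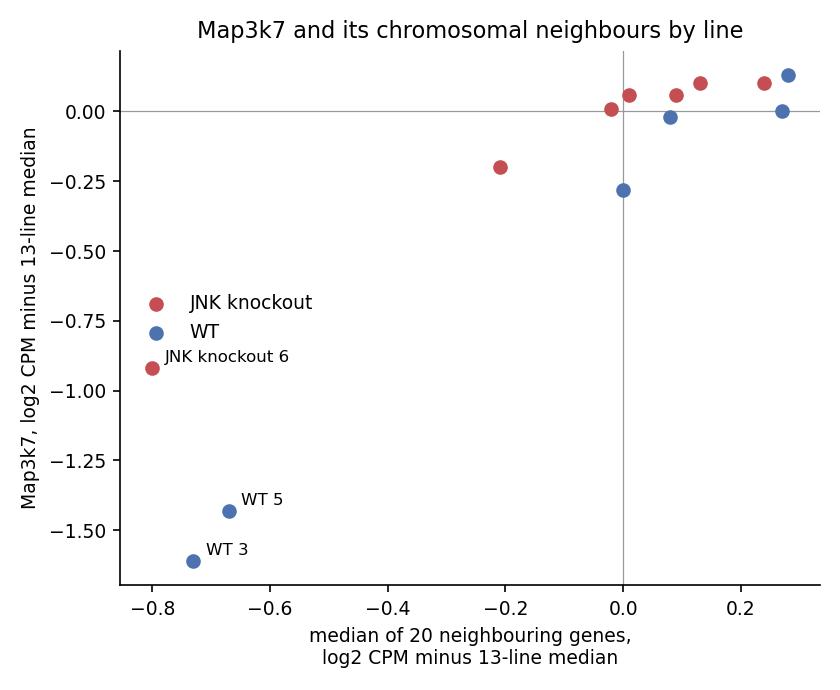
Map3k7 (vertical axis) and the median of its 20 nearest tested genes on chromosome 4 (horizontal axis), each as log2 CPM minus its 13-line median, for 7 JNK knockout and 6 WT lines. Knockout replicate 6 and WT replicates 3 and 5 are low on both axes.

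The same comparison for the other 8 genes gave smaller numbers. Map3k10 had 34 of its 100 most correlated genes on its own chromosome 7, which holds 7.57% of genes, and 5 of its 20 neighbours above r = 0.5. Map3k11 had 10 on chromosome 19, which holds 3.48% of genes, and also 5 of 20 neighbours above 0.5. For the remaining 6 genes the number was between 1 and 6.

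The 9 genes did not rise and fall together from line to line. With group means removed, the 36 pairs of members had a median correlation of 0.03 over the 13 lines, and 19 were positive. The highest were Map3k10 with Map3k11 (r = 0.82), Map3k12 with Map3k13 (r = 0.74) and Map3k1 with Map3k13 (r = 0.68). Map3k9, the third mixed-lineage kinase gene of the 9, was at r = 0 with Map3k10 and 0.07 with Map3k11. The most opposed were Map3k1 and Map3k7 (r = -0.69), with WT replicate 3 the highest WT line for Map3k1 and the lowest for Map3k7. These correlations describe lines that share a library protocol and carry no test.

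Single lines had their own profiles. Knockout replicate 6 had the highest level of its group for 4 of the 9 genes (Map3k1, Map3k5, Map3k10 and Map3k11) and the lowest for Map3k7. Knockout replicate 5 had the lowest for 4 genes (Map3k1, Map3k4, Map3k5 and Map3k12), with a median deviation of -0.41 over the 9 from the median of the other knockout lines. In that line deviations ran with gene length over all genes (Spearman's rho -0.50 across genes, which are not replicates, against -0.24 to 0.18 in the other 12 lines), and the 9 genes lay between percentiles 67.6 and 98.5 of relative length. The shortest of the 9 by that measure, Map3k10 and Map3k11 (percentiles 67.6 and 68.9), were not low there. They were at 36.9 and 53.4 CPM, below only knockout replicate 6 in the group. The part of length in the levels of knockout replicate 5 was not tested. WT replicate 3 had the highest level of its group for Map3k1, Map3k4 and Map3k13 and the lowest for Map3k7, Map3k9 and Map3k10.

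**Figure D4:**
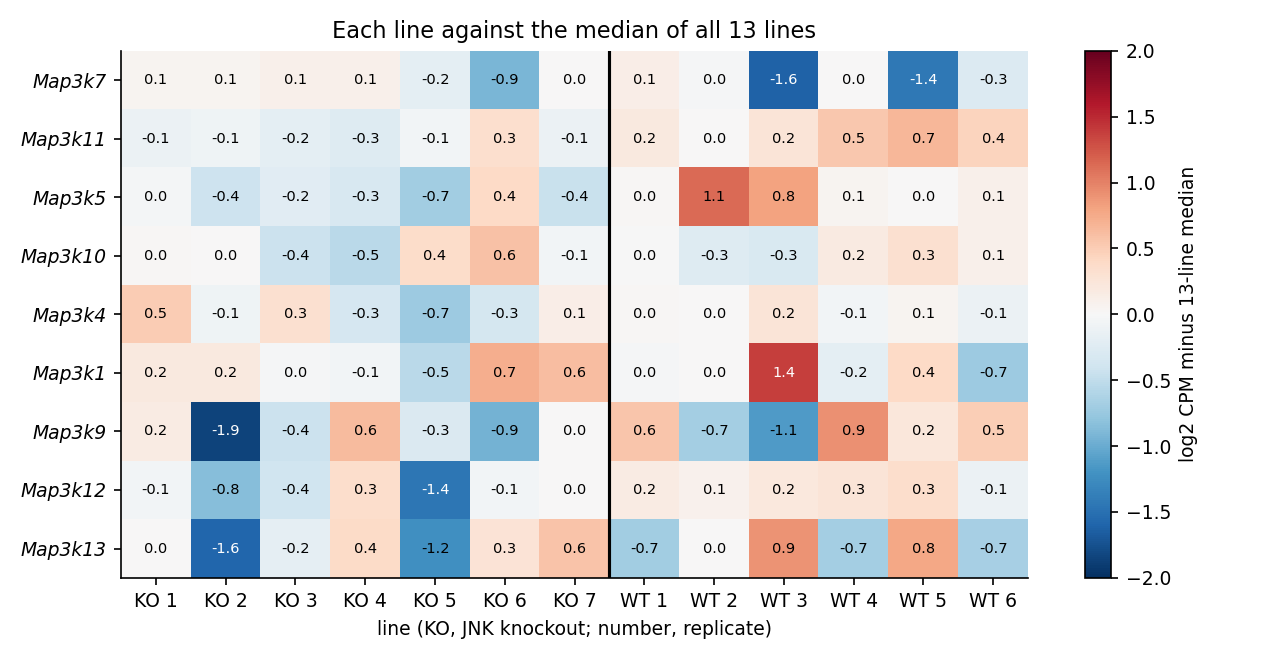
Log2 CPM of each MAP3K gene minus its median over 13 lines, with the 7 JNK knockout lines left of the black line and the 6 WT lines right of it. The deepest values are Map3k9 in knockout replicate 2 (-1.85) and Map3k7 in WT replicate 3 (-1.61), and most cells of Map3k11 lie within 0.3 of 0 in knockout lines.

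Genes whose levels were most like those of the 3 members with the lowest p were sought among 10291 genes with a mean of at least 5 CPM, after removal of group means over the 13 lines. For Map3k11 these were Xdh (r = 0.91), Pnp (r = 0.91) and Phf1 (r = 0.89). Of them Pnp, the purine nucleoside phosphorylase gene, was higher in knockout lines (log2 fold change 1.28, adjusted p = 0.0327). For Map3k5 they were Stat5b (r = 0.92), Hiatl1 (r = 0.91) and Lmo7 (r = 0.91), and for Map3k12 Tmem170 (r = 0.95), Tert (r = 0.92) and Usp32 (r = 0.91). Apart from Pnp none of these 9 genes passed the test between the groups. The lowest adjusted p among them was 0.0594, for Lmo7. These r values are the highest of a search through 10291 genes over only 13 lines, and they carry no test. For each of the 9 MAP3K genes the 3 most alike genes had r between 0.86 and 0.96.

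Other kinases of the same tier were read from a list of 15, which holds the remaining MAP3K genes, the TAO kinases and the RAF kinases. Of 14 tested, 0 were higher and 0 lower at an adjusted p under 0.05, where 8.51% of all genes tested passed. Their median log2 fold change was 0.11, and 4 had an unadjusted p under 0.05, against 26.3% of all genes tested. Taok3 had the lowest p (25.3 ± 11.1 CPM in knockout lines and 13.8 ± 2.89 CPM in WT lines, log2 fold change 0.88, adjusted p = 0.0851). Map3k15 was 2.82 ± 3.29 CPM in knockout lines and 0.624 ± 0.530 CPM in WT lines (log2 fold change 2.17, SE 0.81, adjusted p = 0.111). DESeq2 gave both an adjusted p of 0.035. Among edgeR fits that left out 1 line, Taok3 passed in 1 of 13, the one without knockout replicate 5 (log2 fold change 1.01, adjusted p = 0.0341). With limma on log2(TPM + 1) its adjusted p was 0.31. Map3k15 passed in 0 of 13 fits that left out 1 line, and without knockout replicate 2, its highest line at 9.85 CPM, its value was 1.40 (adjusted p = 0.216). Map3k21, a further mixed-lineage kinase listed under the older symbol BC021891 and named after its values were seen, ranged from 1.89 to 71.2 CPM in knockout lines and from 0.0472 to 23.8 CPM in WT lines (adjusted p = 0.146). Map3k19 had 2 reads over the knockout lines and 5 over the WT lines and was not tested.

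Partners and regulators of the 9 kinases were read from a list of 20, of which 19 were tested (median log2 fold change -0.09). Of these 1 rose and 2 fell, where 4.33% of all genes tested rose and 4.17% fell. An unadjusted p under 0.05 was found for 5 of the 19, against 26.3% of all genes tested. Traf6, the ubiquitin ligase that links interleukin-1 receptors to TAK1, was 28, 37.5, 39.8, 41.0, 27.0, 39.0 and 30.9 CPM in knockout replicates 1 to 7, against 52.8, 47.9, 63.0, 60.7, 52.4 and 43.9 CPM in WT replicates 1 to 6. All 7 knockout lines lay below every WT line, and Traf6 fell 1.54-fold (log2 fold change -0.62, SE 0.14, adjusted p = 0.018). Itch, a ubiquitin ligase that JNK phosphorylates, fell 1.47-fold (94.8 ± 19.1 CPM in knockout lines and 139 ± 24.5 CPM in WT lines, adjusted p = 0.0414). When lines were left out singly, Itch passed in 3 of 13 fits. Mycbp2, whose ubiquitin ligase (PHR1) limits DLK in neurons, rose 1.65-fold (76.2 ± 17.5 CPM in knockout lines and 46.2 ± 11.7 CPM in WT lines, adjusted p = 0.039). It too passed in 3 of 13 such fits, and limma on log2(TPM + 1) gave an adjusted p of 0.244. The TAK1 adaptor genes Tab1, Tab2 and Tab3 had log2 fold changes of 0.17, 0.12 and -0.15 (lowest adjusted p = 0.42). Txn1, for the thioredoxin that binds ASK1, was 494 ± 226 CPM in knockout lines and 326 ± 207 CPM in WT lines (adjusted p = 0.387). Not called, but among the 5 genes with an unadjusted p under 0.05, were Gadd45a and Mapk8ip1. Their log2 fold changes were -1.27 and -1.32 (adjusted p = 0.105 and 0.111). Gadd45b and Gadd45g were at -0.23 and 1.04 (adjusted p = 0.781 and 0.218). Mapk8ip2, which encodes a JNK scaffold, had 8 reads over the knockout lines and 3 over the WT lines.

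Among 10 MAP4K kinases and GTPases that act on MAP3Ks, 0 rose and 1 fell (median log2 fold change -0.27). Of all genes tested 4.33% rose and 4.17% fell. An unadjusted p under 0.05 was found for 4 of the 10, against 26.3% of all genes tested. Map4k3, which encodes the kinase GLK, was 42.2, 56.0, 60.4, 53.0, 36.8, 60.8 and 57.9 CPM in knockout replicates 1 to 7, against 84.0, 99.6, 122, 80.3, 151 and 75.9 CPM in WT replicates 1 to 6. All knockout lines lay below every WT line, and the level fell 1.95-fold (log2 fold change -0.96, SE 0.18, adjusted p = 0.00919). Rac1 and Cdc42, whose products activate the mixed-lineage kinases, had log2 fold changes of -0.10 and 0.41 (adjusted p = 0.785 and 0.146). Among the 4 MAP2K genes below the MAP3Ks, 0 passed in either direction. An unadjusted p under 0.05 was found for 1 of them, against 26.3% of all genes tested. Map2k4 was 131 ± 17.7 CPM in knockout lines and 114 ± 16.8 CPM in WT lines (adjusted p = 0.337), and Map2k7 was 64.9 ± 5.79 CPM and 66.4 ± 6.72 CPM in knockout and WT lines (adjusted p = 0.87). Map2k6, which encodes a p38 activator, was 1.77 ± 0.871 CPM in knockout lines and 4.72 ± 4.21 CPM in WT lines (log2 fold change -1.41, adjusted p = 0.144), and its log2 fold change was -0.92 without WT replicate 3 (adjusted p = 0.33).

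**Figure D5:**
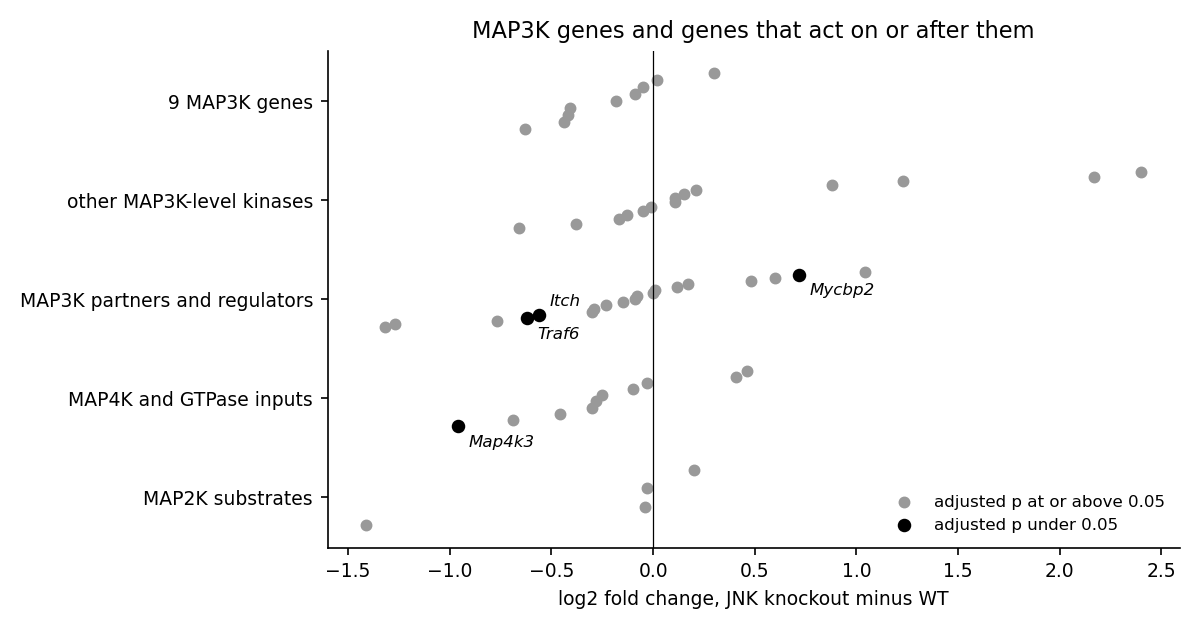
Log2 fold changes (JNK knockout minus WT) of the tested genes in the 9 MAP3K genes and the 4 further lists, 1 point per gene, with genes at an edgeR adjusted p under 0.05 in black and named. No gene of the 9 is black, and of the others Traf6, Itch and Map4k3 lie to the left and Mycbp2 to the right.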

How the data were processed

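RNA from 7 JNK knockout and 6 WT lines was sequenced as paired 150 bp reads, per the labels' protocols. The authors deposited expected counts per gene and TPM values, made with cutadapt and RSEM on mm10 (GRCm38), per the submitters' processing notes. Of versions, aligner and strand use nothing is given in the sources used here. Columns were matched to samples by title, and replicates numbered in accession order.

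Expected counts were rounded. Genes were filtered with filterByExpr (13058 of 23845 kept), scaled by TMM and tested with edgeR 4.0.16 (R 4.3.3) by the quasi-likelihood test with group as the only term. Benjamini-Hochberg adjustment covered the 13058 genes, and calls needed an adjusted p under 0.05. Log2 fold changes are knockout minus WT. The SE was the fold change over the square root of F, and intervals used a t distribution, so both are approximate. CPM are TMM-scaled, and errors are SD over lines. TPM were tested on log2(TPM + 1) over all 1716 splits of the lines, adjusted over all genes tested in place of an adjustment over the 9 genes. Correlations used log2 CPM (prior count 2) minus group means. Positions and promoters are RefSeq's (GRCm38.p6), and relative length is the ratio of counts to TPM.

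The members, lists, alternatives and the rule for named genes were chosen with earlier results of these data known. The rule took all 9 members, up to 4 called genes of each list (or the 2 of lowest p) and the 3 genes most like each of the 3 members with the lowest p. Other genes were named after their values were seen. Alternatives covered scaling, filter, DESeq2 1.42.0, limma 3.58.1 (voom and log2 TPM), each line left out, WT replicates 4 and 5 summed, and knockout replicate 2 and WT replicate 3 left out. Leaving out knockout replicates 5 and 6 was added after seeing the data.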

Additional observations from a re-analysis of the deposited data

Results flagged for a closer look

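Of 18 Dixon tests for a line far from the rest of its group (9 genes in 2 groups, on CPM), 3 found one. About 5% of groups of normally distributed values give one by chance. Whether CPM are so distributed was not tested, and the 18 tests share lines and are not independent. Map3k1 was 88.3 CPM in WT replicate 3, against at most 44.3 CPM in the other WT lines. Map3k7 was 93.5 CPM in knockout replicate 6, against at least 154 CPM in the other knockout lines. Map3k11 was 69.2 CPM in the same knockout line, against at most 53.4 CPM in the others.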

How the results depend on the processing

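No paired analysis was possible because the labels give no replicate numbers shared by the groups. Of the 9 genes, 1 was called with DESeq2, 1 on log2(TPM + 1) and 1 on log2(TPM + 0.1), Map3k11 each time (adjusted p = 0.0223, 0.0278 and 0.0271). Of 13058 genes tested, 1130 were higher and 977 lower with DESeq2. On log2(TPM + 1) 286 were higher and 998 lower. Between 0 and 2 of the 9 were called without 1 line (Map3k11 without WT replicate 2, Map3k11 and Map3k5 without knockout replicate 6), and 1 without knockout replicates 5 and 6. Without knockout replicate 6, 649 of 12989 genes were higher and 579 lower. Without WT replicate 2, 470 of 13238 were higher and 494 lower. Whether the 9 genes differ from all genes in these shares was not tested. Over 25 alternatives the adjusted p of Map3k11 was 0.0223 to 0.127 and that of Map3k5 0.0484 to 0.225, with log2 fold changes of -0.65 to -0.36 and -0.82 to -0.44. Traf6 and Map4k3 were called in all 25.

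Over all genes, 1130 were higher and 977 lower with DESeq2, 286 and 998 on log2(TPM + 1), and 322 and 981 on log2(TPM + 0.1), against 566 and 545. The lower share of calls was 77.7% on log2(TPM + 1) against 49.1%. Without 1 line 324 to 649 were higher and 316 to 592 lower. Of the listed genes around the MAP3Ks, 1 was higher and 3 lower. The number higher was 0 with library size alone, without a filter, on either TPM scale, with WT replicates 4 and 5 summed and without knockout replicate 2 and WT replicate 3, 4 with DESeq2, 4 without knockout replicates 5 and 6, and 0 to 2 without 1 line. The number lower was 5 with DESeq2. The cause was not tested.

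Signs turned for some small values. Without knockout replicate 2 and WT replicate 3, log2 fold changes were 0.28 for Map3k1, 0.001 for Map3k4, -0.037 for Map3k10 and 0.21 for Map3k13, and log2 TPM differences were 0.012 for Map3k1, -0.079 for Map3k7 and 0.006 for Map3k13. With limma-voom, Map3k1 was at 0.036 and Map3k10 at -0.017. Map3k10 was at -0.049 with library size alone, -0.23 on log2(TPM + 1), -0.24 on log2(TPM + 0.1) and -0.21 without knockout replicates 5 and 6, where Map3k4 was at 0.11. Map2k4 was at -0.034 on log2(TPM + 1) and -0.035 on log2(TPM + 0.1). Without 1 line, ranges were -0.23 to 0.28 for Map3k1, -0.155 to 0.035 for Map3k4, -0.092 to 0.095 for Map3k10 and -0.32 to 0.056 for Map3k13. In TPM they were -0.36 to 0.018 for Map3k1 and -0.047 to 0.325 for Map3k7. The widest intervals were those of Map3k13, the member with the fewest reads, and Map3k9.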
